A study of Mus musculus with 6 samples.

Results

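The Wnt ligands, their frizzled receptors and co-receptors, the secreted antagonists of the pathway and a few of its intracellular effectors were read in 2 subgroups of mouse adipose derived mesenchymal stem cells (AD-MSCs). Members were taken by gene symbol: every gene of the array annotation whose symbol begins with Wnt, Fzd, Sfrp or Dkk followed by a number, together with Frzb, Wif1, Lrp5, Lrp6, Ror1, Ror2, Axin2, Lef1, Tcf7, Tcf7l1, Tcf7l2 and Ctnnb1. It gave 49 genes of the 18193 measured, read from 99 of 45037 probe sets. Tcf7 had no probe set annotated to it alone and was not analysed here, and Fzd10os, a transcript from the strand opposite Fzd10, was taken because its symbol meets the rule.

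The cells came from groin fat of adult C57BL/6 mice, were sorted by flow cytometry on the surface enzyme CD73 and were grown as separate CD73+ and CD73- cultures in low sugar DMEM with 10% FBS. RNA of the fifth passage was hybridised to Affymetrix mouse expression arrays, 3 for CD73+ AD-MSCs and 3 for CD73- AD-MSCs, and the deposited values are log2 signals. Both subgroups are untreated, and the study used the comparison to find genes that set the CD73+ subgroup apart. Nothing in the labels ties an array to a culture or animal of its own, so p-values measure the spread between arrays, which may be technical. In such bulk RNA, fewer cells of a type and less RNA per cell cannot be told apart.

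Wnt proteins are secreted lipid-modified ligands that bind frizzled receptors on the cell surface. With the co-receptors Lrp5 or Lrp6 they stabilise beta-catenin (Ctnnb1), which enters the nucleus and acts through the Tcf and Lef factors, while other ligands and the receptors Ror1 and Ror2 act on cell polarity and calcium without beta-catenin. Secreted frizzled-related proteins (Sfrp, Frzb) and Wif1 bind the ligands outside the cell, and Dkk proteins such as Dkk1 act on Lrp5 and Lrp6. In stromal cells of fat, Wnt signals are known to restrain adipocyte formation.

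Of the 49 genes, 5 were higher and 4 were lower in CD73+ AD-MSCs as deposited, and 40 did not pass the threshold of an adjusted p of 0.05 (limma). The 4 lower genes turn higher when the arrays are scaled to their poly-A control probe sets, which adds the same amount to every log2 difference. The higher genes were the antagonists Sfrp1 and Sfrp2, the ligand Wnt4 and the receptors Fzd2 and Fzd1. The lower genes were the ligands Wnt11 and Wnt9a and the receptors Fzd3 and Fzd6. Over all genes, 10.1% were higher, 12.6% lower and 22.8% called either way, so the 18.4% called among the Wnt genes lay below the share in the whole table. The arrays of the subgroups did not overlap for 16 Wnt genes (32.7%), beside 40.8% of all genes. The median log2 difference was 0.0041 over the Wnt genes and -0.0176 over all genes.

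The plot of log2 differences shows that most of the Wnt genes lay close to 0. The median size of the difference, with its sign left out, was 0.098 over the Wnt genes and 0.117 over all genes.

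**Figure D1:**
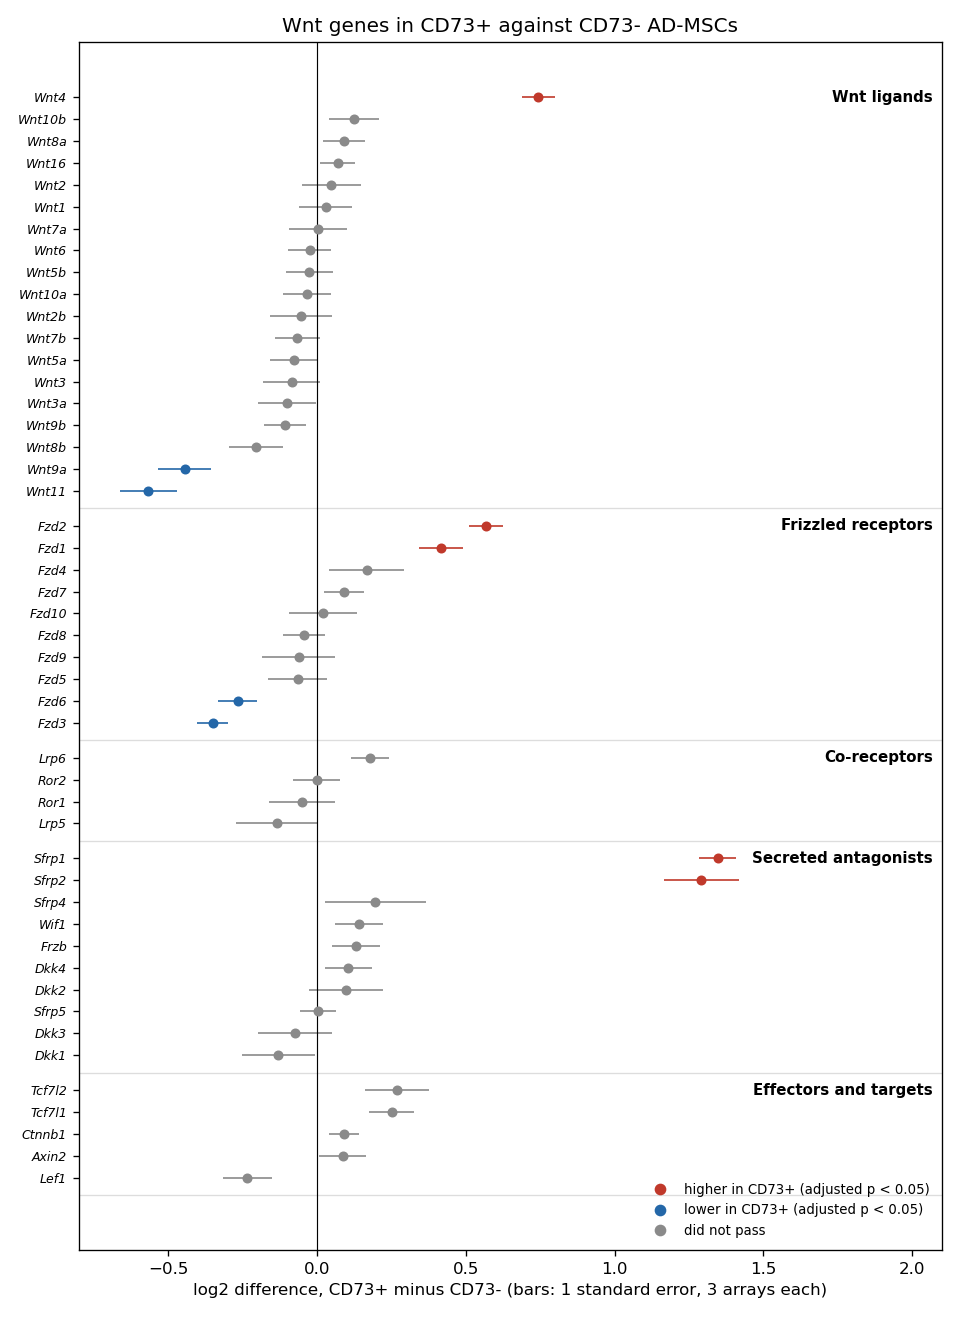
The horizontal axis gives the log2 difference, CD73+ minus CD73- AD-MSCs on the deposited scale, of each Wnt gene with bars of 1 standard error (3 arrays in each subgroup), and genes are grouped by role, with Fzd10os left out. Sfrp1 and Sfrp2 lie farthest to the right at 1.35 and 1.29, and Wnt11 lies farthest to the left at -0.57, a sign that turns under scaling to the poly-A controls.

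Promoter sequence was at hand for 5 of the 9 genes that passed, Sfrp2, Wnt4, Fzd1, Wnt11 and Wnt9a, and for 34 of the 49 in all. The stretches of 150 bases before the transcription start are shown for the ligands and the antagonist among them, because these are the genes of the set that are secreted and moved in either direction. The sequences are those of RefSeq on GRCm38.p6, on the plus strand, at chr3:83766171-83766320 for Sfrp2, chr4:137277485-137277634 for Wnt4, chr7:98834962-98835111 for the first start of Wnt11 and chr11:59306780-59306929 for Wnt9a. Capitals mark matches to CTTTGAT, the core site of Tcf and Lef factors, and to the TATA box TATAAA, both searched on either strand.
Sfrp2: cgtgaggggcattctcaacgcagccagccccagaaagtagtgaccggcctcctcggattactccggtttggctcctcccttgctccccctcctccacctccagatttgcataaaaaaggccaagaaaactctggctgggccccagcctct
Wnt4: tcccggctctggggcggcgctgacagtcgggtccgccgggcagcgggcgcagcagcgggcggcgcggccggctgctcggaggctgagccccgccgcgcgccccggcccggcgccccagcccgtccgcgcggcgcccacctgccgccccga
Wnt11: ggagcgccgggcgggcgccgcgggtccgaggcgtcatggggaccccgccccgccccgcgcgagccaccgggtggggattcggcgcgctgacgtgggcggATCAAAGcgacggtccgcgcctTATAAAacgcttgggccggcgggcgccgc
Wnt9a: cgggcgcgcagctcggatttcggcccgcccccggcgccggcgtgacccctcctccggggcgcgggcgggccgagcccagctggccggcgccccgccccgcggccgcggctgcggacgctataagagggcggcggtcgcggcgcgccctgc

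Capitals fall in the Wnt11 stretch alone, where the Tcf and Lef letters were read on the other strand (ATCAAAG) 51 bases before the start and the TATA box 29 bases before it. The RefSeq table holds another start of Wnt11, which has no match. Over windows from 250 bases before to 50 after the start, the Tcf and Lef letters occurred in 2 of 42 promoters of Wnt genes (4.76%), those of Wnt11 and Wnt5b, and in 3.73% of all 32851 promoters. The TATA letters occurred in 19% of the Wnt gene promoters and 13.6% of all. The windows of Wnt4 and Wnt9a, 1 higher and 1 lower on the deposited scale, were both rich in G and C, at 84.3% and 83.3% of bases beside a median of 52.7% over all promoters, and those of Wnt11 and Sfrp2 held 71.3% and 66.0%. Windows of Wnt genes that did not pass ran from 42.0% (Tcf7l2) to 86.3% (Wnt3a). These matches describe letters and say nothing of whether a factor bound there.

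Before the genes are taken in turn, the arrays themselves were checked. Array medians ran from 5.28 to 5.37 on the log2 scale, arrays of one subgroup correlated at 0.997 to 0.998 over probe sets, and arrays of different subgroups at 0.993. Nt5e, which encodes CD73, stood at 7.29, 6.39 and 6.84 in CD73- AD-MSCs and at 7.84, 7.60 and 7.74 in CD73+ AD-MSCs, a difference of 0.88 (adjusted p = 0.0218) that followed the labels. That call is lost when CD73- replicate 3 (adjusted p = 0.0569) or CD73+ replicate 1 or 3 (0.0763 and 0.0563) is left out, and the mean of its 3 probe sets differed by 0.27 (adjusted p = 0.101). The methods' t-test also lost it (adjusted p = 0.127). The 12 poly-A control probe sets, for RNA added before labelling, were lower in CD73+ AD-MSCs by a mean of -0.93. Scaled to them, the median difference over all probe sets moves from -0.000187 to 0.93 and all 49 Wnt genes are higher in CD73+ AD-MSCs. This scaling adds the same amount to every log2 difference, so the signs that turn follow from that shift and are no separate result for a gene. Each sign in the text holds relative to the bulk of transcripts. Whether the gap in the controls is technical or reflects RNA per cell cannot be told from these values and was not tested.

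Markers of other cells were read beside the Wnt genes, and their part in the results was not tested. Shares called were 57.1% for stroma, 40% for blood-derived cells, 33.3% for skeletal muscle and 20% each for adipocytes and mesothelial cells. For pericytes and smooth muscle it was 16.7%, beside 22.8% of all genes, and the arrays did not overlap for 40.8% of all genes. All 7 stromal markers lay above the median of the probe sets, where 3901 of 11132 genes were called. No difference in share was tested. Of 7 measured markers of adipose stroma, Thy1, Pdgfra, Col1a1 and Dcn were higher in CD73+ AD-MSCs, and their summed signal was 13.35 to 13.38 on CD73+ arrays and 12.94 to 12.97 on CD73- arrays (log2). Of 5 markers of blood-derived cells, Cd14 and Csf1r were higher, with sums of 8.32 to 8.37 and 7.94 to 8.12, while Ptprc, the pan-leukocyte marker CD45, stood at 3.06 and 3.19, well under the array medians. Of 5 adipocyte markers Pparg was lower, with sums of at most 7.09 on CD73+ arrays and 7.21 to 7.24 on CD73- arrays. The other 4 adipocyte markers lay under the median of the probe sets. Mesothelial sums were 6.60 to 6.83 and 6.41 to 6.55 with 1 of 5 markers higher (Msln), but all 5 lay under the median of the probe sets. Skeletal muscle sums were 9.06 to 9.14 and 8.79 to 8.86 with 1 of 6 higher (Acta1) and 1 lower (Myf5). Acta1, at 8.52 and 8.14, was the brightest of the 6, and Myf5 stood at 2.35 and 2.59, far under the median. A sum of dim signals does not show that cells of a type are present. Pericyte and smooth muscle sums were 13.75 to 13.78 and 13.71 to 13.74 with 1 of 6 higher (Pdgfrb). Sums were taken before the log, so Acta2, the brightest of the 6 at 13.67 and 13.63, outweighs the rest. Acta2 differed by 0.03 (adjusted p = 0.759). None of 6 endothelial or 3 Schwann cell markers passed, and their sums overlapped between the subgroups. All marker sums and signs are on the deposited scale, and the lower ones turn higher under the poly-A scaling.

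Among the 10 secreted antagonists, 2 were higher in CD73+ AD-MSCs and 0 were lower, which is 20% called, beside 22.8% of all genes. Sfrp1 binds Wnt ligands through a frizzled-like domain and can keep them from their receptors. Its log2 signal was 6.81, 6.83 and 6.74 on the CD73- arrays and 8.10, 8.22 and 8.09 on the CD73+ arrays. The lowest CD73+ array lay more than a log2 unit above the highest CD73- array. The means were 8.14 ± 0.073 and 6.79 ± 0.050 (SD, n = 3), a 2.54-fold difference (log2 1.35, SE 0.063, adjusted p = 8.61e-05). All 5 probe sets of Sfrp1 were higher, by 0.68 to 2.20.

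Sfrp2 is a close relative of Sfrp1 that stromal cells and fibroblasts secrete. It was read at 3.91, 3.89 and 3.93 in CD73- AD-MSCs and at 4.92, 5.46 and 5.21 in CD73+ AD-MSCs. The CD73- arrays were nearly alike and the CD73+ arrays were spread, with means of 3.91 ± 0.022 and 5.20 ± 0.27 (SD, n = 3). The difference was 1.29 (SE 0.126, adjusted p = 0.000688), from a single probe set. The table gives no detection calls, so the signal in CD73- AD-MSCs is not shown to be above background and no fold is given. Its mean level lay under the median signal of the probe sets, so a filter at that median leaves it untested.

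The other antagonists did not pass. Sfrp4 differed by 0.20 (adjusted p = 0.511) and Sfrp5 by 0.0037. Frzb, which is structurally a frizzled-related protein, and Wif1, which binds Wnt proteins by another fold, differed by 0.13 and 0.14. Of the Dkk genes, Dkk1 differed by -0.13 (95% interval -0.41 to 0.16, adjusted p = 0.555), Dkk2 by 0.10, Dkk3 by -0.07 and Dkk4 by 0.11. Both antagonists that passed are Sfrp genes, while the ligand-binding Sfrp4, Sfrp5, Frzb and Wif1 did not pass. Of the 10 antagonists, 7 lay under the median of the probe sets, among them all Dkk genes, Frzb and Wif1. Of these 7, Sfrp2 alone was called, and over all genes 240 of 7061 under that median were called. With calls so rare at such signals, the values cannot show whether kinds of antagonist differ, and this was not tested.

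Of the 19 ligands, 1 was higher and 2 were lower in CD73+ AD-MSCs on the deposited scale, and on the poly-A scale both lower ones turn higher. That is 15.8% called, beside 22.8% of all genes. Wnt4, known for its part in kidney, gonad and muscle development, stood at 7.39, 7.42 and 7.48 on the CD73- arrays. It stood at 8.16, 8.20 and 8.15 on the CD73+ arrays. The spread within each subgroup was small beside the gap, with means of 7.43 ± 0.045 and 8.17 ± 0.028 (SD, n = 3). The difference was 0.74 (SE 0.056, adjusted p = 0.000281), or 1.67-fold, and the other probe set gave 0.67 and also passed.

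Wnt11, a ligand known mainly for signals without beta-catenin in cell movement, went the other way. It was at 6.36, 6.25 and 6.31 in CD73- AD-MSCs and at 5.57, 5.71 and 5.93 in CD73+ AD-MSCs. The subgroups did not overlap, but the CD73+ arrays spread over more than the CD73- arrays did (5.74 ± 0.18 and 6.31 ± 0.056, SD, n = 3). The difference was -0.57 (SE 0.095, adjusted p = 0.00592), which is 1.48-fold lower, and turns to 0.36 when scaled to the poly-A controls.

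Wnt9a, which takes part in joint and skeletal development, was at 6.40, 6.33 and 6.30 on the CD73- arrays and at 6.06, 5.92 and 5.72 on the CD73+ arrays. The highest CD73+ array lay below the lowest CD73- array. Means were 5.90 ± 0.17 and 6.34 ± 0.051 (SD, n = 3), and the difference of -0.44 (SE 0.091, adjusted p = 0.0133) turns to 0.48 on the poly-A scale. The call is lost without CD73- replicate 1 (-0.42, adjusted p = 0.0516), and the other probe set gave -0.19 and did not pass. Its adjusted p ran from 0.00296 to 0.0681 over the alternatives other than the poly-A scaling.

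The remaining 16 ligands did not pass, and their differences lay between -0.20 (Wnt8b, adjusted p = 0.183) and 0.13 (Wnt10b, adjusted p = 0.39). Of these 16, 11 lay under the median of the probe sets, Wnt8b and Wnt10b among them, so a difference in them may go unseen. Wnt10b is the ligand best known for holding back adipocyte formation. Wnt5a, the prototype of ligands that act without beta-catenin, stood at 8.33 ± 0.059 and 8.40 ± 0.13 (SD, n = 3), and its arrays overlapped. Its difference of -0.08 had a 95% interval of -0.26 to 0.11 (adjusted p = 0.606), and none of its 4 probe sets passed. Among the others, Wnt2b, Wnt3, Wnt5b, Wnt6, Wnt7b, Wnt9b and Wnt10a had differences below 0 and Wnt1, Wnt2, Wnt7a, Wnt8a and Wnt16 above 0, all between -0.11 and 0.09. Wnt3a, a common activator of beta-catenin, differed by -0.10 (adjusted p = 0.57).

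Several ligand genes are neighbours in the genome, which allowed a comparison of pairs. Wnt3a and Wnt9a adjoin on chromosome 11, and of these Wnt9a alone passed. Wnt9b and Wnt3 (also on chromosome 11, -0.11 and -0.09), Wnt6 and Wnt10a (chromosome 1, -0.02 and -0.03) and Wnt10b and Wnt1 (chromosome 15, 0.13 and 0.03) had no member that passed. The difference between neighbours was not tested.

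**Figure D2:**
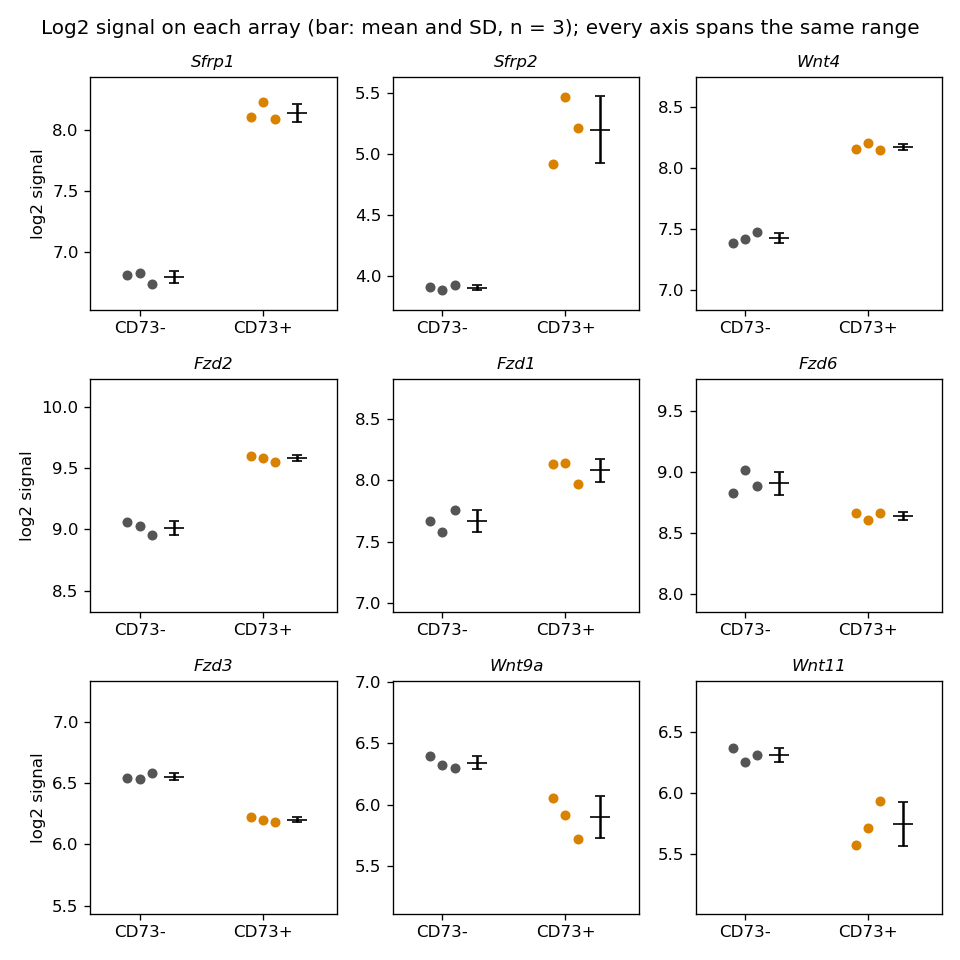
The vertical axis of each panel gives the log2 signal on the 3 CD73- and 3 CD73+ arrays of a Wnt gene that passed the threshold, with the mean and SD beside the points and axes of equal length. The subgroups do not overlap in any of the 9 panels, Sfrp1 and Sfrp2 show the widest gaps, and Fzd6, Fzd3, Wnt9a and Wnt11 are lower in CD73+ AD-MSCs on the deposited scale, a sign that turns on the poly-A scale.

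The plot of the signals by array shows both the size of each gap and the spread behind it. An exact permutation test over the 6 arrays (two-sided) gave p = 0.1 for each of the 9 genes, the smallest value that 3 arrays against 3 allow, so it cannot reach the threshold.

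Of the 10 frizzled receptors, 2 were higher and 2 were lower in CD73+ AD-MSCs on the deposited scale, and all were higher once scaled to the poly-A controls. That is 40% called, beside 22.8% of all genes. All 10 had signals above the median of the probe sets, where 3901 of 11132 genes were called, and the difference in share was not tested. Fzd2, a receptor that takes both beta-catenin dependent and independent signals, stood at 9.06, 9.03 and 8.95 on the CD73- arrays and at 9.60, 9.59 and 9.55 on the CD73+ arrays. The means were 9.58 ± 0.025 and 9.01 ± 0.055 (SD, n = 3), a difference of 0.57 (SE 0.057, adjusted p = 0.000783) or 1.48-fold. Its 3 probe sets were all higher, by 0.57, 0.65 and 0.85.

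Fzd1, from the same receptor subfamily as Fzd2 and Fzd7, was at 7.67, 7.58 and 7.75 in CD73- AD-MSCs and at 8.13, 8.14 and 7.97 in CD73+ AD-MSCs. The CD73+ arrays were all above the CD73- arrays, by 0.42 on average (SE 0.075, adjusted p = 0.00777, 1.33-fold). The other probe set of Fzd1 gave 0.08 and did not pass, and the mean of both gave 0.25 (adjusted p = 0.0859). Over the alternatives other than the poly-A scaling, its adjusted p ran from 0.000239 to 0.0859. Fzd7 differed by 0.09 (adjusted p = 0.425), and its difference from Fzd1 was not tested.

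Fzd3, a receptor of axon guidance and planar polarity, was at 6.54, 6.53 and 6.58 on the CD73- arrays and at 6.22, 6.20 and 6.19 on the CD73+ arrays. Within each subgroup the arrays were almost alike, and the difference was -0.35 (SE 0.053, adjusted p = 0.00378), turning to 0.58 on the poly-A scale. Its probe sets did not move together: 2 of 6 were lower and the other 4 lay between -0.08 and 0.21 and did not pass. The mean over the 6 differed by -0.10 (adjusted p = 0.216), the highest value over the alternatives other than the poly-A scaling, of which the lowest was 0.000521.

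Fzd6, which shares planar polarity roles with Fzd3, was at 8.83, 9.01 and 8.88 in CD73- AD-MSCs and at 8.66, 8.60 and 8.66 in CD73+ AD-MSCs. The gap between the subgroups was the narrowest of the 9 genes that passed, with a difference of -0.27 (SE 0.066, adjusted p = 0.0293) that turns to 0.66 on the poly-A scale. One other probe set gave -0.27 with an adjusted p of 0.0928 and the third gave 0.04. The call does not hold when CD73- replicate 2 (adjusted p = 0.0931) or replicate 3 (0.0511) is left out, nor without any of the 3 CD73+ arrays (0.0836, 0.103 and 0.0578 for replicates 1, 2 and 3). It held in 8 of 15 alternatives other than the poly-A scaling, with adjusted p from 0.00165 to 0.103.

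Fzd4, the Norrin receptor of retinal vessels, differed by 0.17 (adjusted p = 0.443) on the probe set used, while another of its 3 probe sets was higher by 0.27 (adjusted p = 0.0254). Fzd5, Fzd8, Fzd9 and Fzd10 lay between -0.06 and 0.02 and did not pass, and Fzd10os differed by 0.07 (adjusted p = 0.657). No co-receptor passed. Lrp6 was at 7.87, 7.90 and 7.78 in CD73- AD-MSCs and at 8.06, 8.07 and 7.96 in CD73+ AD-MSCs. These arrays did not overlap, but the difference of 0.18 (95% interval 0.03 to 0.33) had an adjusted p of 0.0992. Lrp5 differed by -0.13 (adjusted p = 0.595) and by 0.03 without CD73+ replicate 3, and Ror1 and Ror2 by -0.05 and -0.001.

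None of the 5 intracellular genes passed. The arrays of the subgroups did not overlap in 4 of them (80%), beside 40.8% of all genes. Signals of 4 of the 5 lay above the median of the probe sets, and the difference in share was not tested. Beta-catenin (Ctnnb1) was at 12.35, 12.34 and 12.33 on the CD73- arrays and at 12.43, 12.44 and 12.42 on the CD73+ arrays. The difference of 0.09 (95% interval -0.03 to 0.21, adjusted p = 0.292) was small beside the gap in Sfrp1, and came from the brightest of 3 probe sets. The other probe sets of Ctnnb1 were higher, by 0.39 (adjusted p = 0.00718) and 0.29 (adjusted p = 0.0157). Ctnnb1 RNA is no measure of the protein, whose level the pathway sets by degradation.

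Tcf7l1, mainly a repressor of Wnt targets, was at 7.94, 8.04 and 8.13 in CD73- AD-MSCs and at 8.35, 8.32 and 8.19 in CD73+ AD-MSCs. Its difference of 0.25 (95% interval 0.08 to 0.43) narrowly missed the threshold (adjusted p = 0.0567), while its other probe set passed at 0.39 (adjusted p = 0.00355). Tcf7l2, the main Tcf factor of many adult tissues, differed by 0.27 (adjusted p = 0.136), and none of its 4 probe sets passed. Lef1, both an effector and a target of the pathway, was at 6.07, 6.08 and 6.23 in CD73- AD-MSCs and at 5.82, 6.03 and 5.83 in CD73+ AD-MSCs. Lef1 thus read opposite in sign to the Tcf genes, at -0.23 (95% interval -0.43 to -0.04, adjusted p = 0.0984), and at 0.69 on the poly-A scale.

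Axin2, the target most often used as a readout of beta-catenin activity, was at 4.98 ± 0.13 and 4.89 ± 0.059 (SD, n = 3). Its arrays overlapped, and the difference was 0.09 (95% interval -0.10 to 0.27, adjusted p = 0.54). Its signal lay under the median of the probe sets.

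Of the 99 probe sets of the Wnt genes, 16 were higher, 5 were lower and 78 did not pass on the deposited scale, beside 18.9% of all probe sets called either way. Agreement between probe sets of a gene was complete for Sfrp1, Wnt4 and Fzd2 and partial for Fzd1, Fzd3, Fzd6 and Wnt9a, while Sfrp2 and Wnt11 have 1 probe set each. The plot of probe sets shows these genes with Ctnnb1, Tcf7l1 and Fzd4, in which a dimmer probe set passed and the brightest did not.

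**Figure D3:**
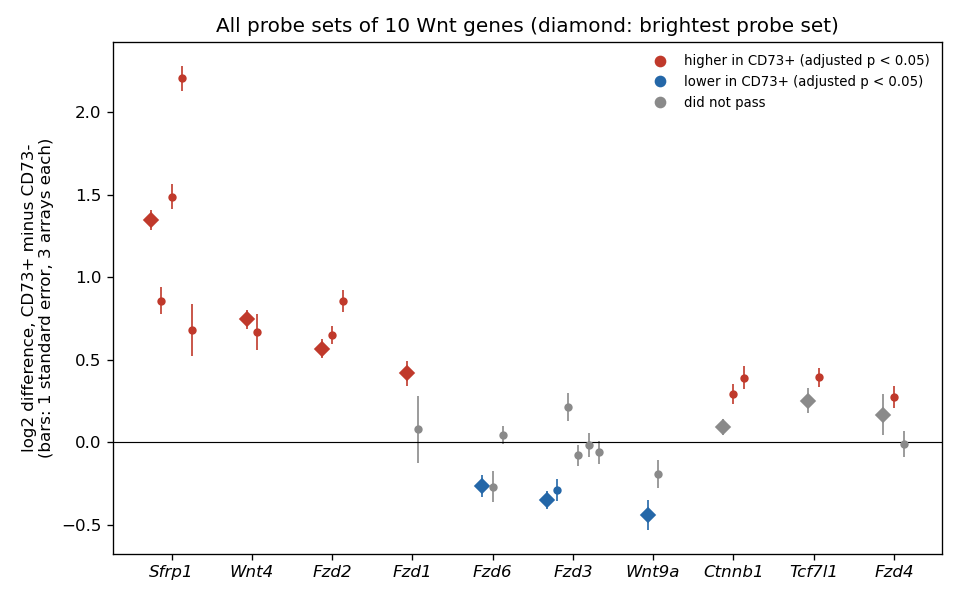
The vertical axis gives the log2 difference, CD73+ minus CD73- AD-MSCs on the deposited scale, with bars of 1 standard error (3 arrays in each subgroup) for every probe set of 10 Wnt genes, and diamonds mark the brightest probe set of a gene. The points of Sfrp1, Wnt4 and Fzd2 all lie above 0, those of Fzd3 run from -0.35 to 0.21, and points below 0 move above it under the poly-A scaling.

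The other genes of the pathway were taken from lists of 107 entries, of which 104 were measured. Of these, 20 were higher and 13 lower in CD73+ AD-MSCs on the deposited scale (31.7% called, beside 22.8% of all genes), and 104 were higher and 0 lower on the poly-A scale. Their median difference was 0.03. In the 79 of them with a mean signal above the median of the probe sets lay all 33 that passed. Over all genes, 11132 of 18193 lay above that median and held 3901 of the 4141 that passed. The difference in share was not tested.

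Outside the cell, none of 3 genes of Wnt secretion passed. Porcn, which attaches the lipid to Wnt proteins, differed by 0.22 (adjusted p = 0.221), and by 0.33 without CD73+ replicate 3, where it passed (adjusted p = 0.0329, in a range of 0.0329 to 0.509 over the alternatives other than the poly-A scaling). Notum, which removes the lipid, differed by 0.05 (adjusted p = 0.778). None of 10 genes of R-spondins and receptor turnover passed either, the smallest p-values being those of the R-spondin receptor Lgr4 (0.16, adjusted p = 0.179) and Rspo3 (0.19, adjusted p = 0.279). Of 8 other extracellular antagonists, 2 were higher and 1 was lower, a sign that turns on the poly-A scale. That is 37.5% called, beside 22.8% of all genes. Tpbg, a membrane protein that inhibits Wnt signals, was higher by 0.53 (adjusted p = 0.00121). Apcdd1, a membrane inhibitor that is also a target, was higher by 0.36 (adjusted p = 0.0352), a call that is lost when either CD73- replicate 1 or 3 (adjusted p = 0.0846 and 0.0663) or CD73+ replicate 1 or 2 (0.116 and 0.113) is left out. Median centring (adjusted p = 0.0563) and the methods' t-test (adjusted p = 0.122) lost it too, so it held in 9 of 15 alternatives other than the poly-A scaling. Igfbp4, an IGF-binding protein that also binds frizzled and Lrp6, differed by -0.50 (adjusted p = 0.00221).

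Of 24 genes of the cytoplasmic relay and the destruction complex, 3 were higher and 5 lower on the deposited scale, the latter turning higher on the poly-A scale. That is 33.3% called, beside 22.8% of all genes, and 20 of the 24 had signals above the median of the probe sets. Frat2, which takes Gsk3 out of the complex, was higher by 0.42 (adjusted p = 0.00367). Apc, the scaffold that helps to degrade beta-catenin, differed by -0.44 (adjusted p = 0.00285). Dact3, a Dishevelled antagonist, was higher by 0.30 (adjusted p = 0.00867) and Fbxw11, a ubiquitin ligase subunit that recognises beta-catenin, differed by -0.31 (adjusted p = 0.00631), but the mean of their probe sets gave 0.09 (adjusted p = 0.306) and -0.02 (adjusted p = 0.774).

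Of 19 nuclear co-factors, 8 were higher and 1 lower on the deposited scale, the lower one turning higher on the poly-A scale. These make 47.4% called, beside 22.8% of all genes, but 17 of the 19 had signals above the median of the probe sets, where 3901 of 11132 genes were called. The difference from the other lists was not tested. Tle2, a Groucho co-repressor that Tcf factors recruit, was higher by 0.79 (adjusted p = 0.000745). Tle5, a short relative that interferes with other Groucho proteins, was higher by 0.49 (adjusted p = 0.0185). That call is lost without CD73+ replicate 3 (adjusted p = 0.0511), with the replicate block (adjusted p = 0.0633) or with the methods' t-test (adjusted p = 0.0946). Crebbp, a histone acetyltransferase and co-activator, differed by -0.29 (adjusted p = 0.0114), a call lost without CD73- replicate 2 and with the mean of its 4 probe sets, which was 0.0077 (adjusted p = 0.945).

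Of 24 genes of planar polarity and signals without beta-catenin, 4 were higher and 3 lower on the deposited scale, and the lower ones turn higher on the poly-A scale. That is 29.2% called, beside 22.8% of all genes, and 20 of the 24 had signals above the median of the probe sets. Camk2g, a calcium-dependent kinase, was higher by 0.50 (adjusted p = 0.00141) and Mapk8, the JNK1 kinase, by 0.37 (adjusted p = 0.00336). Camk2d, of the same kinase family as Camk2g, differed by -0.60 (adjusted p = 0.00428), but the mean of its 7 probe sets by -0.07 (adjusted p = 0.463). Prickle2, a core planar polarity gene, differed by -0.37 (adjusted p = 0.00623).

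Of 26 known targets of the pathway, which include Axin2, Lef1 and Dkk1, 4 were higher and 3 lower on the deposited scale, and the lower ones turn higher on the poly-A scale. That is 26.9% called, beside 22.8% of all genes. Ccn5, a matricellular protein of stromal cells, stood at 8.68, 8.54 and 8.53 in CD73- AD-MSCs and at 9.73, 9.74 and 9.81 in CD73+ AD-MSCs. The arrays were far apart, by 1.18 (adjusted p = 0.000127), the largest difference among the 104 genes. Id2, an inhibitor of helix-loop-helix factors, was higher by 0.58 (adjusted p = 0.00262). Myc, a driver of growth, differed by -0.50 (adjusted p = 0.00217) and Jag1, a Notch ligand, by -0.47 (adjusted p = 0.0064). These targets also answer to other pathways, so the list is no reading of Wnt activity.

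**Figure D4:**
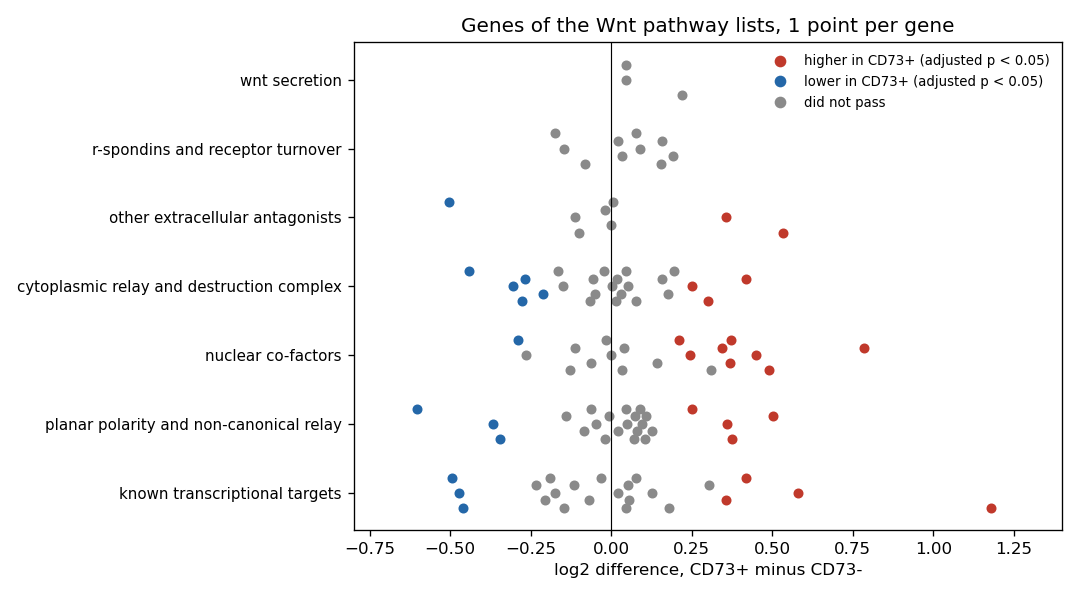
The horizontal axis gives the log2 difference, CD73+ minus CD73- AD-MSCs on the deposited scale, and each point is a gene of a pathway list, with the Wnt genes of the main set left out and genes of more than 1 list drawn in each. Points beyond the threshold lie on both sides of 0 in 4 lists drawn at the bottom and among the other extracellular antagonists, the secretion and R-spondin lists have none, and all points move above 0 under the poly-A scaling.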

How the data were processed

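Gene expression of 3 CD73+ and 3 CD73- AD-MSC arrays was analysed. The deposited table holds log2 signals for 45101 probe sets, made by the authors with RMA according to the submitters' processing notes (version not given in the sources used here). RMA corrects background, makes the arrays alike and summarises probes, so a shift of most transcripts is removed and ratios are compressed. Scanner files were not used here.

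After 64 control probe sets were set aside, a linear model was fitted to the remaining 45037 (limma 3.58.1, R 4.3.3, default eBayes prior, no block, no filter). P-values were adjusted across these by Benjamini-Hochberg, and 0.05 was the threshold. Of these, 34945 carried 1 gene symbol, 932 several and 9160 none, and 34741 matched the RefSeq gene table. A gene was read from its brightest probe set with 1 symbol. Folds are 2 to the power of the log2 difference. The script was tested on simulated data.

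Members and lists were chosen with earlier results of these data known. Wnt genes that passed without overlap are given in full, up to 2 genes each way are named from each pathway list (the 2 of smallest p in a list without a call), and Nt5e checks the labels. Promoters are RefSeq's (GRCm38.p6). Alternatives were normalization, centring, poly-A scaling, a filter on dim probe sets, the eBayes prior, the methods' t-test, the mean of a gene's probe sets, a replicate block and leaving out each array. The number of arrays limits the precision.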

Additional observations from a re-analysis of the deposited data

How the results depend on the processing

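Sfrp1, Sfrp2, Wnt4, Fzd2 and Wnt11 kept their call under each alternative in which they were tested, apart from the sign of Wnt11 under the poly-A scaling. Scaling each array to its poly-A controls adds the same amount to every log2 difference. It moved the Wnt genes to 49 higher and 0 lower with a median difference of 0.93, and the other pathway genes to 104 higher and 0 lower. It turned the sign of Fzd3 (0.58), Fzd6 (0.66), Wnt11 (0.36), Wnt9a (0.48), Lef1 (0.69), Lrp5 (0.79), Wnt5a (0.85), Wnt8b (0.72), Wnt3a (0.83), Dkk1 (0.80), Igfbp4 (0.42), Apc (0.48), Fbxw11 (0.62), Crebbp (0.64), Camk2d (0.32), Prickle2 (0.56), Myc (0.43) and Jag1 (0.45). The trended eBayes prior gave 9 higher Wnt genes (Ctnnb1, Lrp6, Tcf7l1 and Tcf7l2 were added). The share of all genes called under each alternative is not given here, so changes in these counts are no result about the Wnt genes. The methods' t-test gave 2 lower Wnt genes, without Fzd6 (adjusted p = 0.0598) and Wnt9a (adjusted p = 0.0681), and added Ctnnb1. The mean of the probe sets ended the calls of Fzd1 and Fzd3 and turned Crebbp to 0.0077. The mean of the probe sets also added Ctnnb1, Lef1 and Tcf7l1, the filter at the median level added Lef1, Lrp6 and Tcf7l1, quantile normalization added Lef1, cyclic loess added Lrp6, and leaving out CD73- or CD73+ replicate 3 added Tcf7l1. Adjusted p of the named genes with a lost call ran, without the poly-A scaling, from 0.00283 to 0.122 for Apcdd1, 0.00112 to 0.306 for Dact3, 2.98e-06 to 0.774 for Fbxw11, 8.05e-05 to 0.945 for Crebbp, 2.16e-05 to 0.463 for Camk2d, 0.000617 to 0.0946 for Tle5 and 0.000745 to 0.127 for Nt5e. Leaving out 1 array moved no called difference given in the text by over 1.5 times, but it moved Lrp5 between -0.25 and 0.028, Sfrp4 between 0.073 and 0.36, Fzd4 between 0.049 and 0.29, Dkk1 between -0.23 and -0.032, Wnt10b between 0.064 and 0.20, Wnt8b between -0.27 and -0.10, Wnt5a between -0.14 and -0.0063, Wnt3a between -0.15 and -0.011, Fzd7 between 0.048 and 0.13, Tcf7l2 between 0.17 and 0.32, Axin2 between 0.013 and 0.13, Rspo3 between 0.072 and 0.28, Notum between 0.0095 and 0.11 and Porcn between 0.14 and 0.33, of which Porcn alone passed, without CD73+ replicate 3. With the replicate block, 5 Wnt genes were higher and 3 lower, Fzd6 being lost (adjusted p = 0.0862). No pairing by replicate number was seen: deviations of same-numbered arrays correlated at -0.14, 0.03 and -0.14, and 2 of 6 arrays were closest to their own number. With so few arrays this cannot show whether same-numbered arrays share an origin, and the labels do not say. The cause of these changes was not tested, except that a filter removes dim genes such as Sfrp2. Dim signals limit what can be seen in the 22 Wnt genes under the median of the probe sets.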
